A study of Homo sapiens with 36 samples.

Results

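The homeobox, PAX and SOX lineage factors of a small-cell lung cancer line were compared between clones with and without NEUROD1, and with and without BET inhibition. They were chosen by gene symbol: every row of the authors' table of normalized counts named for the HOXA to HOXD clusters, DLX, IRX, LHX, NKX, POU, SIX-family, PAX (PAX5 left out) or SOX families. The rule found 84 of 19014 rows, which carry 83 symbols because HOXC4 stands on 2 gene identifiers. One row, NKX2-1-AS1, is an antisense RNA beside NKX2-1 rather than a factor. Rows were tested where 9 or more of the 36 libraries held 10 normalized counts or more, which left 67 of the 84 rows for testing. The 6 DLX, 4 LHX and 3 PAX rows all passed, as did 26 of 36 HOX rows, 11 of 13 SOX, 6 of 7 POU, 5 of 7 NKX, 4 of 5 SIX-family and 2 of 3 IRX rows. The same filter on the control libraries alone would have passed 60 rows, and on the knockout libraries alone 63.

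H446 is an established human line of the NEUROD1-expressing (SCLC-N) subtype. The control group was clones 3, 10 and 13, which carry a non-targeting gRNA, whose genotype is labelled WT. The knockout group was 3 NEUROD1-KO clones (12, 15 and 2-1), and the labels give guide #297 for each of them, so the guide and the loss of NEUROD1 cannot be told apart. All clones were grown in RPMI with 10% heat-inactivated serum and received JQ1 (1 µM) or its solvent DMSO for 24 h. Each clone and treatment has 3 replicate libraries. The clone was the unit of replication (n = 3 per genotype), and a clone's level is the mean of its libraries.

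Homeodomain, paired-box and HMG-box (SOX) proteins bind DNA in a sequence-specific manner and set cell identity in development. HOX genes lie in 4 clusters and pattern the body axis, DLX factors act in ventral forebrain, branchial arches and bone, and POU, PAX and SOX factors include regulators of neural progenitors and of their differentiation. NEUROD1 is a basic helix-loop-helix factor that binds E-boxes and drives neuronal and endocrine differentiation. JQ1 displaces BET bromodomain proteins from acetylated histones.

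NEUROD1 itself stood at 5998 ± 580.5 normalized counts (SD, n = 3) in control clones with DMSO and at 1.87 ± 2.93 in knockout clones, with 40 reads over the 18 knockout libraries (log2 fold change -11.55, SE 0.66, limma adjusted p = 0.000187). In FPKM, a level per gene length, control clones with DMSO held NEUROD1 at 147 ± 13.4, POU2F3 at 0.00778 ± 0.0135 and YAP1 at 0.00222 ± 0.00385, the pattern of the labelled subtype. In knockout clones with DMSO the neuroendocrine markers CHGA, SYP and INSM1 stood at 0.841, 3.08 and 1.02 FPKM, against 139, 73.0 and 69.0 in control clones. Of the other markers listed, CHGB and SCG3 stood at 5.00 and 1.13 FPKM, against 61.2 and 83.1. NCAM1 remained at 69.6 FPKM in knockout clones, against 151 in control clones. With DMSO 5 of the 6 listed were lower in knockout clones, against 6.23% of all genes. The libraries held 13282337 to 18890506 reads, except replicate 1 of knockout clone 12 with JQ1, with 31825795. That library also held lung epithelium markers (6 of 11 listed are in the table) at a summed 68046 normalized counts, against 4.67 to 136 in the other 35 libraries, and blood markers (4 of 9) at 12684, against 8.31 to 68.1. Of its lineage factor rows, 15 of the 84 were at least 2-fold above both other replicates of that clone. HOXB6 stood at 194 against 0.972 and 2.33, NKX2-1, the lineage factor of lung and thyroid epithelium, at 157 against 5.83 and 11.7, and SOX5 at 245 against 41.8 and 61.9. Another 18 rows were at least 2-fold below both, while the median ratio over 4149 well-expressed genes was 0.770. The shares of all genes at least 2-fold above or below were not counted, so these counts show nothing particular to lineage factors. Counts that involve JQ1 in knockout clones are therefore given with and without this library. Of the 38 rows that passed for JQ1 in knockout clones either way, the log2 change moved by a median of 0.10 without it, and by over 0.2 for NKX2-1, POU6F1, NKX2-1-AS1, HOXA4 and HOXB7, the largest shift being 0.45. Of the 15 rows that passed between genotypes with JQ1 either way, the median shift was 0.12, and SOX5 alone moved by over 0.2 (0.25).

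**Figure D1:**
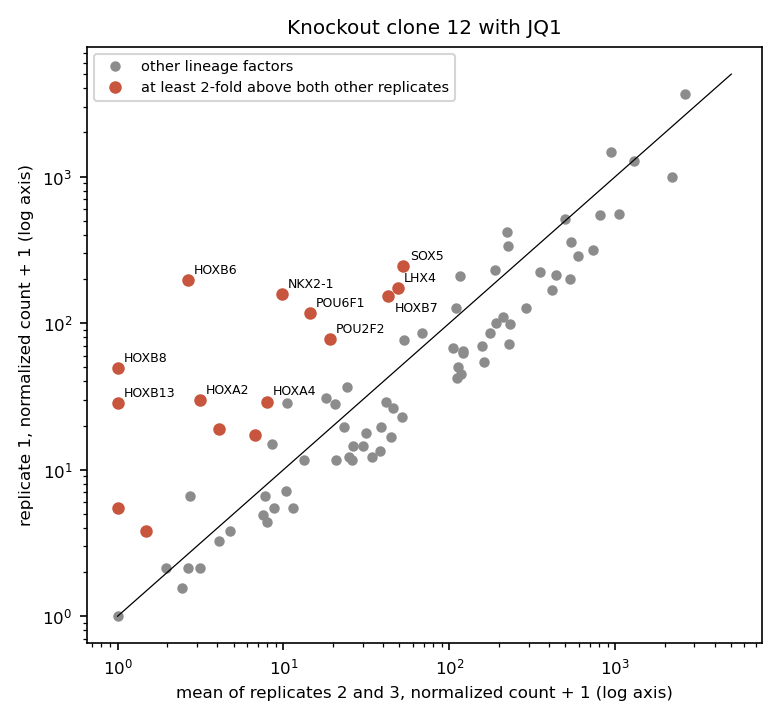
Normalized counts of the 84 rows in replicate 1 of knockout clone 12 with JQ1 (vertical log axis) against the mean of replicates 2 and 3 (horizontal log axis), with 1 added to each value; the line marks equality. The 15 red points, among them HOXB6 (194), HOXB8, HOXB13 and NKX2-1 (157), lie at least 2-fold above both other replicates.

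E-box letters in promoters were read because NEUROD1 binds such sites. RefSeq windows of 300 bases around the annotated start (GRCh38.p14) were at hand for 51 of the 83 symbols, 81 windows in all. The letters CAGATG, on either strand, occurred in 8 of these 81 windows (9.88%) and in 14.7% of all 35116 windows. CAGCTG, which reads the same on both strands, occurred in 16 of 81 (19.8%) and in 17.9% of all windows. The windows shown belong to 3 factors that were lower and 1 that was higher without NEUROD1, with these letters in capitals, 5′ to 3′ on the gene's strand. A match is a description of the letters only. The POU4F1 window is chr13:78603503-78603802 (minus strand), the SOX4 window chr6:21593501-21593800 (plus strand), the PAX6 window chr11:31806876-31807175 (minus strand), which is 1 of 9 starts, and the SOX13 window chr1:204072865-204073164 (plus strand).
POU4F1: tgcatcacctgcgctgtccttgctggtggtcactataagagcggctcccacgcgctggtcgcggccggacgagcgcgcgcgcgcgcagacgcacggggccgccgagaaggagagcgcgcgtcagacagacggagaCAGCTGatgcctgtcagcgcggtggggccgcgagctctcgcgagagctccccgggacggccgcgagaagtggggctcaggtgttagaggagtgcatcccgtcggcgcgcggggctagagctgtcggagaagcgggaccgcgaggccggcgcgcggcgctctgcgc
SOX4: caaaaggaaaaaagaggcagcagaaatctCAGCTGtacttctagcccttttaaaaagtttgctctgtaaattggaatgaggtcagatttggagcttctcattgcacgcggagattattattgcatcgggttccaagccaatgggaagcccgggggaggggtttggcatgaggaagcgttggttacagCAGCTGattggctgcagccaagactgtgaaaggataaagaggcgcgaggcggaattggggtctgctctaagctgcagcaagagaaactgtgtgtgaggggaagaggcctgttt
PAX6: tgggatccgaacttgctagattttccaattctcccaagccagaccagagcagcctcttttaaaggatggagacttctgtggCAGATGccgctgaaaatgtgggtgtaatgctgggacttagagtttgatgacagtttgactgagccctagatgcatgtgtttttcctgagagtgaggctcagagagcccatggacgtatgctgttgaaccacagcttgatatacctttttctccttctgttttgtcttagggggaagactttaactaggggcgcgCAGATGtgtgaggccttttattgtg
SOX13: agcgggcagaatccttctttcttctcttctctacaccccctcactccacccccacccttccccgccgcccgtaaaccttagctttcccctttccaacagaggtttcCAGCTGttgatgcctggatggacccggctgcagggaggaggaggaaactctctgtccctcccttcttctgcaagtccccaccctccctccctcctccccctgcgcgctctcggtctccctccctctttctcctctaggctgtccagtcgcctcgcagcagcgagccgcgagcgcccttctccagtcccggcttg

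POU4F1 and SOX13 each hold CAGCTG once, SOX4 holds it 2 times, and the PAX6 window shown holds CAGATG 2 times. It is the PAX6 window with the most matches: of the 9 in the table, 7 hold neither set of letters and 1 holds CAGATG once. Of the 15 factors that differed between genotypes with DMSO, 9 had a window; 4 of their 21 windows held CAGATG and 3 held CAGCTG. Each window shown holds a match, but not every window of these factors does. SOX6, which was higher without NEUROD1, held CAGATG in some of its 5 windows and CAGCTG in none. The SOX5 window, of a factor that was also lower, held neither set of letters. Nor did the windows of DLX6, HOXA13 and SIX4, which were higher.

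The leading factors of the line changed with genotype. Per length, the highest levels in control clones with DMSO were those of SOX4 (61.3 ± 28.1 FPKM), an HMG-box factor of progenitors and many carcinomas, PAX6 (59.5 ± 6.89), the paired-box regulator of eye, forebrain and pancreatic islets, and POU4F1 (44.7 ± 12.2), a POU factor of sensory neurons. SOX12 (31.9 ± 3.27), HOXA10 (30.7 ± 8.84), SOX2 (18.1 ± 9.77), LHX2 (12.6 ± 0.788), HOXC4 (12.0 ± 3.12), HOXB3 (11.5 ± 1.70) and SOX5 (11.1 ± 2.39) followed. The spread of SOX4 over clones covers the PAX6 and POU4F1 levels, and the spreads of LHX2 to SOX5 overlap, so these neighbours have no fixed order. In knockout clones the first place was taken by DLX5 (76.0 ± 22.8 FPKM), a regulator of bone and ventral forebrain, followed by SOX2 (42.5 ± 3.21), a factor of pluripotent and neural stem cells. PAX6 (32.8 ± 9.64), HOXA10 (30.1 ± 6.44), DLX3 (27.1 ± 12.5), SOX12 (24.5 ± 1.56), SOX9 (24.0 ± 26.4), DLX6 (22.0 ± 5.44), SOX4 (20.3 ± 0.657) and HOXC10 (17.7 ± 3.56) came next, and from PAX6 on each lies within the spread of its neighbour. At least 1 FPKM was reached by 52 of 84 rows in control and 56 in knockout clones with DMSO, and by 45 and 46 with JQ1. In such bulk RNA, fewer cells that express a gene and less RNA per cell cannot be told apart.

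With DMSO, 5 neural factors were lower and 10 factors, among them 4 DLX genes, were higher in the knockout clones. These 15 are 22.4% of the 67 rows tested, against 12.5% of all 15819 genes tested; 6.32% of all genes were higher and 6.23% lower. The median log2 fold change of the 67 was -0.07, against 0.01 over all genes. Outside the HOX clusters 13 of 41 rows passed, and within them 2 of 26. DLX4 and SOX13 reached the filter through the knockout libraries (18 of 18 at 10 normalized counts or more, against 5 and 1 of 18 control libraries), so a difference between genotypes was built into their selection.

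POU4F1 was the largest loss. It stood at 3825, 3040.5 and 2207 normalized counts in control clones 3, 10 and 13 and at 97.4, 111 and 125 in knockout clones 12, 15 and 2-1. The groups lie far apart and the knockout clones are within a narrow range (log2 fold change -4.73, SE 0.23, limma adjusted p = 0.000125). SOX5, an HMG-box factor of neurons and cartilage without an activation domain of its own, stood at 522, 629 and 857 in control clones and at 109.8, 206 and 100.4 in knockout clones (-2.31, SE 0.33, adjusted p = 0.00705). SOX11, a factor of immature neurons, stood at 550.0, 528 and 775 against 205, 202 and 259 (-1.47, SE 0.22, adjusted p = 0.00753). In both factors the genotypes do not overlap, which also held for rows that did not pass, such as DLX2 and PAX9. SOX4, its close paralog, ranged more widely in control clones (3000.3, 3602 and 6893, the last in clone 13) than in knockout clones (1662, 1437 and 1481; -1.46, SE 0.30, adjusted p = 0.0243). PAX6 stood at 1331, 1580.2 and 1233 against 424, 750.5 and 703 (-1.18, SE 0.25, adjusted p = 0.0252), and the groups do not overlap. The other 2 PAX rows tested with it, PAX8 and PAX9, did not pass (-0.32, SE 0.38, and 0.76, SE 0.25), though the PAX9 groups do not overlap either. How many of all genes do not overlap was not counted, so the lack of overlap shows nothing particular to these factors.

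The DLX genes lie in convergent pairs, and DLX5 with DLX6 and DLX3 with DLX4 are such pairs. All 4 were higher in the knockout clones. DLX5 stood at 53.2, 78.9 and 126 normalized counts in control clones and at 1599.7, 1116 and 2149.6 in knockout clones (log2 fold change 4.27, SE 0.37, adjusted p = 0.00104). DLX6 was already present in control clones (160.0, 166 and 219.5) and stood at 750.0, 399.6 and 644 in knockout clones (1.68, SE 0.28, adjusted p = 0.0112). The DLX3 and DLX4 pair, genes of skin, placenta and teeth, was near the filter in control clones and far above it in knockout clones. DLX3 stood at 0.693, 11.5 and 34.3 against 685, 1511 and 893 (6.79, SE 1.05, adjusted p = 0.00876), and DLX4 at 6.30, 8.0 and 24.0 against 436, 506 and 373 (5.21, SE 0.49, adjusted p = 0.00135). In both, control clone 13 was the highest control clone and still below each knockout clone. DLX1 and DLX2, the third pair, did not pass (-0.21, SE 0.38, adjusted p = 0.782, and 1.23, SE 0.32, adjusted p = 0.052).

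SOX13 and SOX6, which belong to the same SOXD group as SOX5, moved the other way from it. SOX13 stood at 3.85, 2.01 and 8.83 in control clones and at 946, 501 and 99.5 in knockout clones 12, 15 and 2-1 (log2 fold change 6.23, SE 0.86, adjusted p = 0.00626). SOX6 stood at 119.8, 116 and 62.0 against 497, 289 and 1494 (2.67, SE 0.61, adjusted p = 0.0348). The clone with the lowest SOX13 among the knockout clones, 2-1, holds the highest SOX6. SIX4, a homeobox factor of muscle and sensory organ development, stood at 351, 266 and 229 against 589, 541 and 556 (1.02, SE 0.20, adjusted p = 0.0199). The only HOX rows that passed were of the last paralog group, which patterns the posterior end and the limb tips. HOXA13 stood at 8.0, 10.6 and 29.6 against 77.0, 137 and 514 (3.58, SE 0.79, adjusted p = 0.0298), and HOXC13 at 21.7, 13.2 and 13.8 against 197, 149 and 35.8 (2.63, SE 0.65, adjusted p = 0.0449). HOXD13, the third of that group tested, had overlapping clones (10.1, 0.296 and 3.21 against 12.8, 1.62 and 44.9; 1.64, SE 1.22, adjusted p = 0.447).

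**Figure D2:**
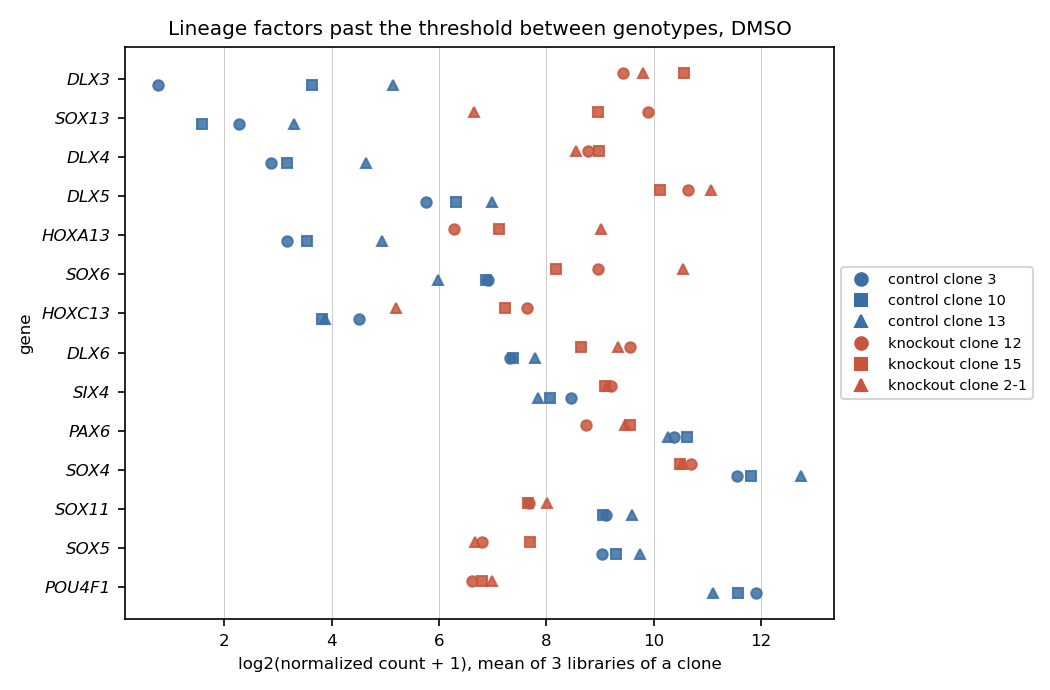
Levels of factors that differed between genotypes with DMSO, as log2(normalized count + 1) on the horizontal axis, with 1 symbol per clone (blue, control clones; red, knockout clones), for 14 of the 15 factors. In each row the 3 control clones and the 3 knockout clones do not overlap, from POU4F1 (log2 fold change -4.73) at the bottom to DLX3 (6.79) at the top. Rows that did not pass, such as DLX2 and PAX9, also do not overlap. The rows drawn were chosen by the test between these same clones, and the share of all genes without overlap was not counted.

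When each of the 6 clones was left out in turn, 7 of the 15 passed every time (POU4F1, SOX5, SOX11, DLX3, DLX4, DLX5 and SOX13), and the other 8 lost their call in at least 1 fit. Without control clone 10 these included DLX6, HOXA13, HOXC13, PAX6, SIX4, SOX4 and SOX6 (adjusted p 0.0537 to 0.147), without control clone 3 HOXA13, HOXC13, PAX6 and SOX6 (0.0754 to 0.0968), and without control clone 13 HOXC13, PAX6, SIX4 and SOX6 (0.0542 to 0.128). Without knockout clone 12 they included HOXC13 and SOX6 (0.0532 to 0.0909), without clone 15 HOXA13, HOXC13, SIX4 and SOX4 (0.0502 to 0.123), and without clone 2-1 SOX4 (0.0606 to 0.0739 over the calls lost there).

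Some factors marked single knockout clones rather than the genotype. A member was singled out, after its values were seen, where 1 clone held at least 50 normalized counts with DMSO and at least 5 times the level of the other 2 clones of its genotype. That held for POU3F2, SOX9 and IRX4, each in a knockout clone. How many of all genes meet this rule was not counted, so it shows nothing particular to lineage factors or to knockout clones. POU3F2 (BRN2), a neural POU factor, stood at 2030.3 in clone 2-1 and at 150.2 and 82.7 in clones 12 and 15, with 123, 249 and 424 in control clones. SOX9, a factor of cartilage, glia and epithelial progenitors, stood at 3244 in clone 2-1, 416 in clone 12 and 633 in clone 15, with 392, 394 and 478 in control clones. IRX4, best known from the heart ventricle, stood at 125 in clone 12 and below 1 in clones 15 and 2-1, with 0 reads in all 18 control libraries; a count of 0 allows up to 3 reads over that group. Neither POU3F2 nor SOX9 passed the genotype test (adjusted p = 0.902 and 0.339), and IRX4 was under the filter. Of 5 endothelium and stroma markers listed, 3 are in the table. With DMSO, DCN and LUM stood at a mean of 9470 and 16124 normalized counts in clone 2-1 and at most at 8.24 and 178 in the other clones, while VWF stood at 3.91 in clone 2-1 and at 1.10 to 24.0 in the others. The part of the first 2 in the SOX9 and POU3F2 levels was not tested.

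**Figure D3:**
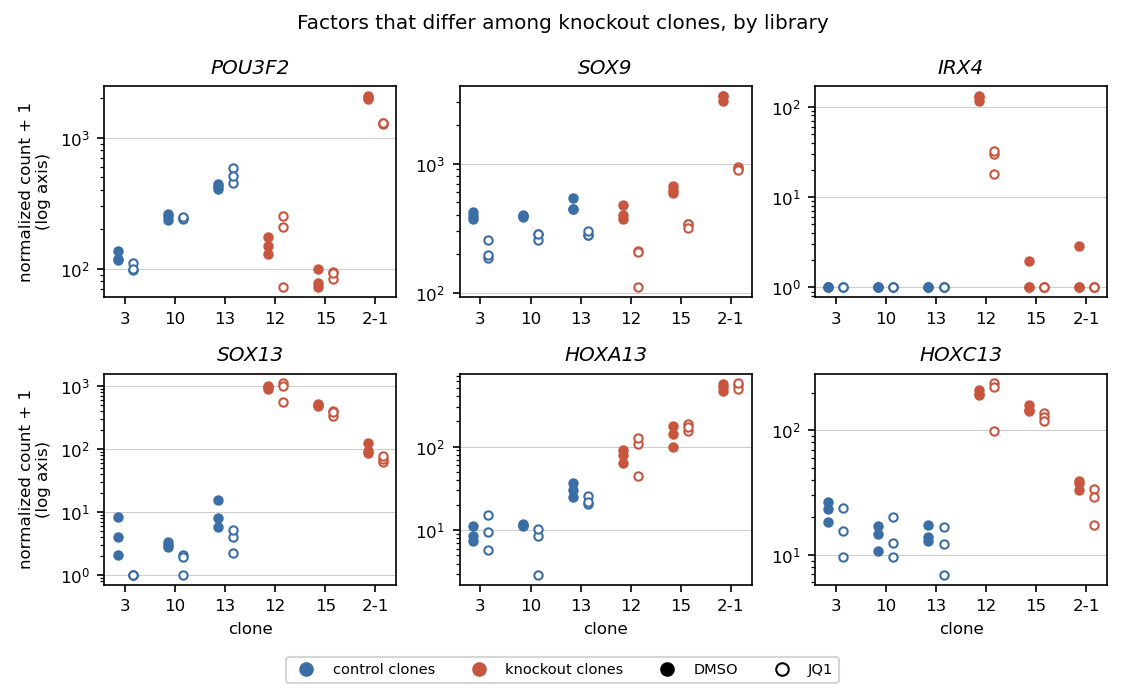
Normalized counts plus 1 (log axis) of 6 factors in each of the 36 libraries, grouped by clone (blue, control; red, knockout; filled, DMSO; open, JQ1). POU3F2 and SOX9 are high in knockout clone 2-1 (2030.3 and 3244 with DMSO) and IRX4 in clone 12 (125), while SOX13 and HOXC13 are lowest and HOXA13 highest in clone 2-1 among the knockout clones.

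With JQ1, the genotypes differed for 17 of the 67 rows, 10 higher and 7 lower in knockout clones, against 12.0% of all genes (6.37% higher, 5.59% lower). Without replicate 1 of knockout clone 12 it was again 17 rows (11 higher and 6 lower, against 11.2% of all genes, 5.63% higher and 5.53% lower), of which 15 were shared; LHX2 and SOX11 dropped out and HOXA11 and POU2F2 came in. POU4F1 kept its difference: it stood at 2436, 1676 and 1360.0 in control and 90.8, 136 and 141 in knockout clones (log2 fold change -3.90, SE 0.29, adjusted p = 0.000369; -3.77 without the library). SOX5 was lower by -2.19 (SE 0.49, adjusted p = 0.0305; -2.44 without the library). DLX3 (6.75, SE 1.00), DLX4 (3.81, SE 0.33), DLX5 (4.66, SE 0.50), DLX6 (1.69, SE 0.35), SOX13 (7.30, SE 0.94), SOX6 (2.96, SE 0.47), SIX4 (1.54, SE 0.21) and HOXA13 (4.15, SE 0.75) were higher under JQ1 as under DMSO. Without the library the same 8 stood at 6.88, 3.93, 4.78, 1.80, 7.40, 3.03, 1.54 and 4.31, in that order.

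A few factors passed between genotypes with JQ1 but not with DMSO. LHX8, a LIM homeobox factor of cholinergic neurons and oocytes, stood at 1.64, 0.700 and 0 in control and at 15.5, 12.8 and 15.3 in knockout clones (3.14, SE 0.52, adjusted p = 0.0108; 2.96 without the library). It reached the filter through the knockout libraries (15 of 18, against 3 of 18 control libraries). The mid-cluster genes HOXA5 (43.2, 50 and 46.7 against 21.3, 20.5 and 10.3; -1.51, SE 0.37, adjusted p = 0.0404) and HOXA6 (22.6, 25.7 and 22.6 against 9.75, 8.50 and 6.49; -1.53, SE 0.37, adjusted p = 0.0398) were lower in knockout clones. So was HOXD8 (36.4, 44.9 and 30.1 against 6.69, 8.25 and 11.6; -1.99, SE 0.37, adjusted p = 0.0174), while HOXC5 was higher (11.9, 21.3 and 12.5 against 38.5, 50.8 and 50.3; 1.96, SE 0.47, adjusted p = 0.0384). None of these 5 passed the test of the difference in JQ1 response, so a change of the genotype effect with JQ1 was not shown for them. LHX2 (-0.86, SE 0.21, adjusted p = 0.0434) and SOX11 (-0.97, SE 0.25, adjusted p = 0.0488) missed the threshold without the library, with estimates of similar size (-0.76, SE 0.26, adjusted p = 0.119, and -0.82, SE 0.26, adjusted p = 0.099). POU2F2 (-1.80, adjusted p = 0.044) and HOXA11 (2.45, adjusted p = 0.0426) passed only without it. PAX6 (-0.91, adjusted p = 0.0829), HOXC13 (2.66, adjusted p = 0.0514) and SOX4 (-0.38, adjusted p = 0.502), which differed with DMSO, did not pass with JQ1.

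Leaving out 1 clone ended 9 of these 17 calls in at least 1 fit; DLX3, DLX4, DLX5, SOX13, SOX6, SIX4, POU4F1 and LHX8 passed every time. The calls lost were DLX6, HOXA5, HOXA6, HOXA13, HOXD8, LHX2, SOX11 and SOX5 without control clone 10 (adjusted p 0.0616 to 0.166), and the same with HOXC5 added without control clone 3 (0.0511 to 0.109). Without control clone 13 they were DLX6, HOXA5, HOXA6, HOXC5, LHX2, SOX11 and SOX5 (0.0555 to 0.139). Without knockout clone 12 they were DLX6, HOXC5, SOX11 and SOX5 (0.0577 to 0.103), without clone 15 HOXA5, HOXA6, HOXC5, LHX2 and SOX11 (0.0652 to 0.119), and without clone 2-1 DLX6, HOXA5, HOXA6, HOXC5, LHX2 and SOX5 (0.0514 to 0.0897).

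JQ1 lowered HOX genes in both genotypes, in control clones mostly in clusters A to C, and raised none of them past the threshold. In control clones 45 of the 67 rows changed with JQ1, against 47.9% of all genes, but 37 of the 45 fell, against 24.9% of all genes that fell and 23.0% that rose. The same 45 passed without the library that stood apart, which enters through the shared spread (52.4% of all genes, 27.3% lower and 25.1% higher). In knockout clones 40 changed (49.6% of all genes), of which 34 fell (25.7% of all genes) and 6 rose (23.9%). Without replicate 1 of clone 12, 43 changed in knockout clones, 35 down and 8 up, against 56.4% of all genes, 30.2% down and 26.2% up. A few of these calls concern a genotype in which fewer than 9 of 18 libraries reached 10 normalized counts: LHX8, POU3F1 and SOX13 in control clones, and NKX2-2, POU3F1 and SOX7 in knockout clones. Leaving those rows out, 35 fell and 7 rose in control clones, and 33 fell and 4 rose in knockout clones. Of the 67 rows, 28 fell and 5 rose in both genotypes, and none passed in opposite directions. The shares of all genes called in both genotypes were not counted, so this overlap shows nothing particular to these rows. The JQ1 effects of the genotypes come from separate clones but share 1 estimate of the spread.

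Among the 26 HOX rows, 17 fell in control clones and 19 in knockout clones (18 without the library). By cluster, 6 of 10 HOXA, 4 of 4 HOXB, 6 of 7 HOXC and 1 of 5 HOXD rows fell in control clones. The HOXD share there (20%) is near the 24.9% of all genes that fell. In knockout clones 7, 4, 5 and 3 rows fell, in the same order, with 2 in HOXD without the library. The median log2 change of the 26 was -0.96 in control and -0.94 in knockout clones, against -0.01 and -0.03 over all genes. All 26 estimates were below 0 in control clones, but 25 when libraries were scaled by TMM, and 24 in knockout clones. The deepest falls in control clones were those of HOXA11, HOXC9 and HOXC8. HOXA11, which acts in limb, kidney and uterus, fell in control clones from 139, 115 and 52.0 to 14.9, 10.8 and 2.81 normalized counts (-3.53, SE 0.20, adjusted p = 2.62e-05). In knockout clones it fell from 173, 259.9 and 177 to 31.2, 60.1 and 41.3 (-2.26, SE 0.20, adjusted p = 9.38e-05; -2.16 without the library). Every clone with JQ1 was below every clone with DMSO within its genotype.

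HOXC9, HOXC8 and HOXC10, genes of thoracic and lumbar levels, followed. HOXC9 fell from 54, 60.6 and 61.1 to 10.1, 8.07 and 4.54 in control clones (-3.04, SE 0.29, adjusted p = 0.000128) and from 55.8, 79.7 and 47.8 to 19.7, 22.7 and 9.67 in knockout clones (-1.82, SE 0.29, adjusted p = 0.00129; -1.71 without the library). HOXC8 fell from 97.3, 115 and 158 to 13.9, 26.9 and 31.7 (-2.41, SE 0.21, adjusted p = 8.92e-05) and in knockout clones from 90.0, 181 and 93.0 to 25.9, 76.9 and 30.8 (-1.58, SE 0.21, adjusted p = 0.000541; -1.41 without the library). HOXC10 fell by 1.83 (SE 0.13) in control and by 1.57 (SE 0.13; 1.39 without the library) in knockout clones on the log2 scale. In the B cluster, HOXB7 fell the most, from 139.6, 116 and 134 to 25.4, 28.1 and 23.1 in control clones (-2.30, SE 0.36, adjusted p = 0.00131), and by 1.98 (SE 0.36, adjusted p = 0.00256) in knockout clones. Its clone 12 mean with JQ1 is 78.9 with and 41.9 without the library that stood apart, where HOXB7 is high, and the knockout fall without it is -2.19. HOXD3, the only D-cluster gene that fell in both genotypes, changed by -1.62 (SE 0.21) and -1.46 (SE 0.21; -1.44 without the library).

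Genes of lower paralog number in clusters A to C fell as well. In control clones HOXA4 (-1.61), HOXA5 (-1.23), HOXA6 (-1.36), HOXA7 (-0.98) and HOXA10 (-0.59) fell, and in knockout clones they fell by -1.94, -1.78, -2.11, -1.26 and -0.65, in the same order, with SE from 0.14 to 0.28 (-2.15, -1.87, -2.21, -1.19 and -0.51 without the library). HOXB2 (-0.94 and -0.73), HOXB3 (-0.70 and -0.47), HOXB4 (-0.52 and -0.88), HOXC4 (-1.40 and -1.66) and HOXC6 (-0.82 and -1.0) fell in control and knockout clones. Without the library these 5 stood at -0.82, -0.54, -0.91, -1.51 and -0.89 in knockout clones. HOXC5 fell in control clones (-1.47, SE 0.27, adjusted p = 0.00293) and missed the threshold in knockout clones (-0.69, SE 0.27, adjusted p = 0.067). HOXA9 (-0.89, SE 0.21, adjusted p = 0.0078), HOXD4 (-0.82, SE 0.19, adjusted p = 0.00789) and HOXD9 (-0.65, SE 0.20, adjusted p = 0.0247) passed in knockout clones, HOXD9 with an adjusted p = 0.0944 without the library. HOXA3, HOXA13, HOXC13, HOXD8 and HOXD13 did not pass in either genotype. HOXA13 and HOXC13, the HOX genes that were higher without NEUROD1 with DMSO, had small estimates (-0.40, SE 0.21, and -0.34, SE 0.19, in control clones; 0.17, SE 0.21, and -0.31, SE 0.19, in knockout clones).

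**Figure D4:**
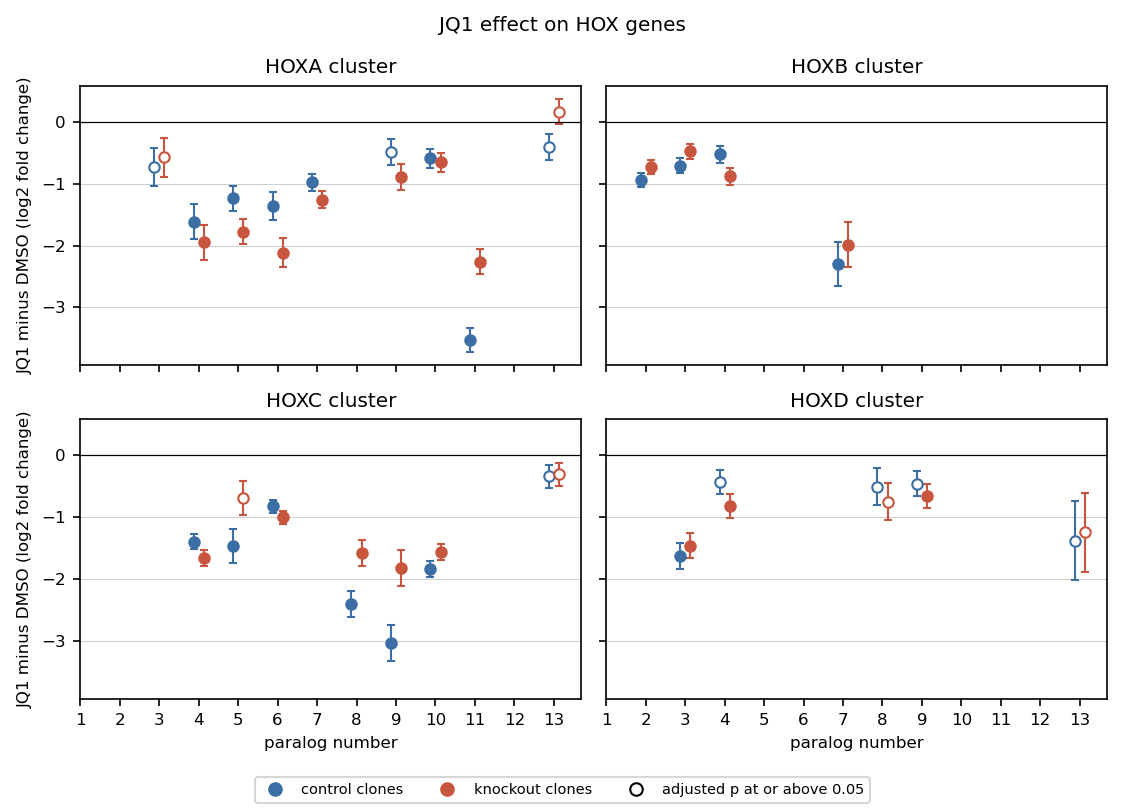
JQ1 minus DMSO log2 fold change of 25 of the 26 HOX rows tested, by cluster and paralog number, in control clones (blue) and knockout clones (red); bars are standard errors and open points have an adjusted p of at least 0.05. Nearly all points lie below 0, lowest for HOXA11 (-3.53) and HOXC9 (-3.04) in control clones, while the group 13 genes of clusters A and C have open points.

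HOX genes overlap one another and antisense RNAs, so single values carry a limit: in GENCODE 29, 33 of the 84 rows overlap another gene on their strand and 47 a gene on the other strand. HOXA11 overlaps HOXA11-AS and HOXA13 overlaps HOTTIP; the library kit is stranded, but no source used here says whether the counting used strand. With 1 clone left out, 3 HOX genes missed the threshold in some fits while their estimates stayed of similar size. For JQ1 in control clones these were HOXB4 without control clone 3 or 10 (-0.59 to -0.48 over all fits) and HOXA10 without clone 10 or 13 (-0.70 to -0.49). In knockout clones it was HOXD9 without clone 15 or 2-1 (-0.79 to -0.45). HOXB4 and HOXA10 were lower with JQ1 in 6 of 6 clones.

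Outside the HOX clusters JQ1 lowered 20 of 41 rows and raised 8 in control clones (68.3% called, against 47.9% of all genes). In knockout clones it lowered 15 and raised 6, and the 51.2% called is near the 49.6% of all genes; without the library it was 17 and 8, against 56.4% of all genes. NKX2-1-AS1 had the largest fall in control clones, from 29.6, 41.6 and 31.4 to 4.76, 6.95 and 4.45 (log2 -2.79, SE 0.48, adjusted p = 0.00196), and its neighbour NKX2-1 fell from 113, 131 and 113 to 35.6, 53.0 and 53.5 (-1.33, SE 0.23, adjusted p = 0.00203). Their reads overlap and may not be told apart. In knockout clones NKX2-1 fell by 0.95 (SE 0.23, adjusted p = 0.00981), and by 1.40 (adjusted p = 0.000228) without the library, since its clone 12 mean with JQ1 is 58.1 with it and 8.75 without it. NKX2-2, a factor of ventral neural tube and islets, fell from 78.4, 55.1 and 68.3 to 9.87, 18.5 and 15.1 (-2.17, SE 0.29, adjusted p = 0.000622), and in knockout clones, where 8 of 18 libraries reached 10 normalized counts, by 2.49 (SE 0.29; 2.43 without the library). NKX6-1, another islet and ventral neural factor, fell in control clones (-1.03, SE 0.28, adjusted p = 0.0157).

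Among LIM homeobox factors, LHX9, a factor of gonad and forebrain, fell by 1.45 (SE 0.23) in control and by 1.68 (SE 0.23; 1.56 without the library) in knockout clones. LHX4, a pituitary and motor neuron factor, fell in control clones (-1.03, SE 0.31, adjusted p = 0.0264), and in knockout clones it passed only without the library (-0.78, adjusted p = 0.0304). LHX8 held 73 reads with DMSO and 7 with JQ1 over the control libraries, with 0 in clone 13, too few for a statement on JQ1 there; in knockout clones it passed only without the library (-1.35, adjusted p = 0.0457). LHX2, a forebrain and hair follicle factor, rose in control clones, from 169.9, 166 and 188 to 219, 232 and 241 (0.40, SE 0.10, adjusted p = 0.014). POU6F1 fell in both genotypes (-1.80, SE 0.41, and -1.67, SE 0.41; -2.01 in knockout clones without the library, which holds 116 against 11.7 and 15.2 in the other replicates), and POU2F1 (OCT1), an octamer-binding factor of nearly all cells, in control clones (-0.60, SE 0.11, adjusted p = 0.00251). Both SIX4 (-0.93, SE 0.11, and -0.40, SE 0.11) and SIX5 (-0.91, SE 0.18, and -0.82, SE 0.18) fell in both genotypes, with -0.41 and -0.87 in knockout clones without the library.

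Several of the factors that differed by genotype with DMSO also fell with JQ1. DLX4 fell in knockout clones from 436, 506 and 373 to 127, 119 and 115 (-1.88, SE 0.24, adjusted p = 0.000409; -1.75 without the library), while DLX3 (-0.42, SE 0.33) and DLX5 (-0.04, SE 0.13) did not pass there. DLX5 fell in control clones (-0.43, SE 0.13, adjusted p = 0.0228), where it is low, and DLX6 fell in both (-0.80, SE 0.12, and -0.79, SE 0.12; -0.67 in knockout clones without the library). SOX6 fell in both (-1.04, SE 0.18, and -0.75, SE 0.18; -0.68 without it). SOX9 fell by 0.71 (SE 0.16) in control and by 1.35 (SE 0.16; 1.25 without the library) in knockout clones, in clone 2-1 from 3244 to 910.4. SOX13 did not pass in knockout clones (-0.36, SE 0.25); the control libraries held 45 reads of it with DMSO and 10 with JQ1, too few for a statement on JQ1 there. PAX6 fell in control clones, from 1331, 1580.2 and 1233 to 1039, 942 and 639 (-0.68, SE 0.13, adjusted p = 0.00279), and in knockout clones with the library (-0.42, adjusted p = 0.0248) but not without it (-0.30, adjusted p = 0.112). SOX12 fell in both (-0.39, SE 0.07, and -0.59, SE 0.07; -0.53 without the library). SOX5 fell in control clones (-0.55, SE 0.17, adjusted p = 0.0286) and in knockout clones only without the library (-0.68, adjusted p = 0.0158). SOX2 fell in knockout clones (-0.37, SE 0.10, adjusted p = 0.0145) and did not pass in control clones (0.04). SOX15 stood at the threshold in knockout clones (-1.14, SE 0.41, adjusted p = 0.0499), a call that was lost in 44 of 56 alternative fits.

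A small set rose with JQ1. In both genotypes these were POU3F1 (OCT6), a factor of Schwann cells and keratinocytes (1.73, SE 0.35, and 1.24, SE 0.35), SOX7, an endothelial SOXF factor (1.17, SE 0.37, and 1.40, SE 0.37), DLX2 (1.15, SE 0.14, and 0.41, SE 0.14), PAX9, a factor of pharyngeal pouches and teeth (0.56, SE 0.17, and 0.62, SE 0.17), and SOX11 (0.39, SE 0.09, and 0.88, SE 0.09). Without the library these 5 stood at 1.37, 1.33, 0.51, 0.52 and 1.04 in knockout clones. POU3F1 and SOX7 are low: 10 normalized counts were reached in 8 and 10 of 18 control libraries and in 7 and 6 of 18 knockout libraries. DLX2 moved in every control clone, from 48.6, 40.1 and 46.3 to 114, 91.5 and 99.4. SOX11 rose in knockout clones from 205, 202 and 259 to 420.0, 319.8 and 548, where the level in clone 2-1 with JQ1 lies between those of control clones with DMSO. POU2F2 (OCT2), best known from B cells (1.01, SE 0.29, adjusted p = 0.0204), and SIX2, a factor of kidney progenitors (0.59, SE 0.13, adjusted p = 0.00713), rose in control clones. In knockout clones POU2F2 did not pass (0.24, SE 0.29), and SIX2 passed only without the library (0.45, adjusted p = 0.021).

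**Figure D5:**
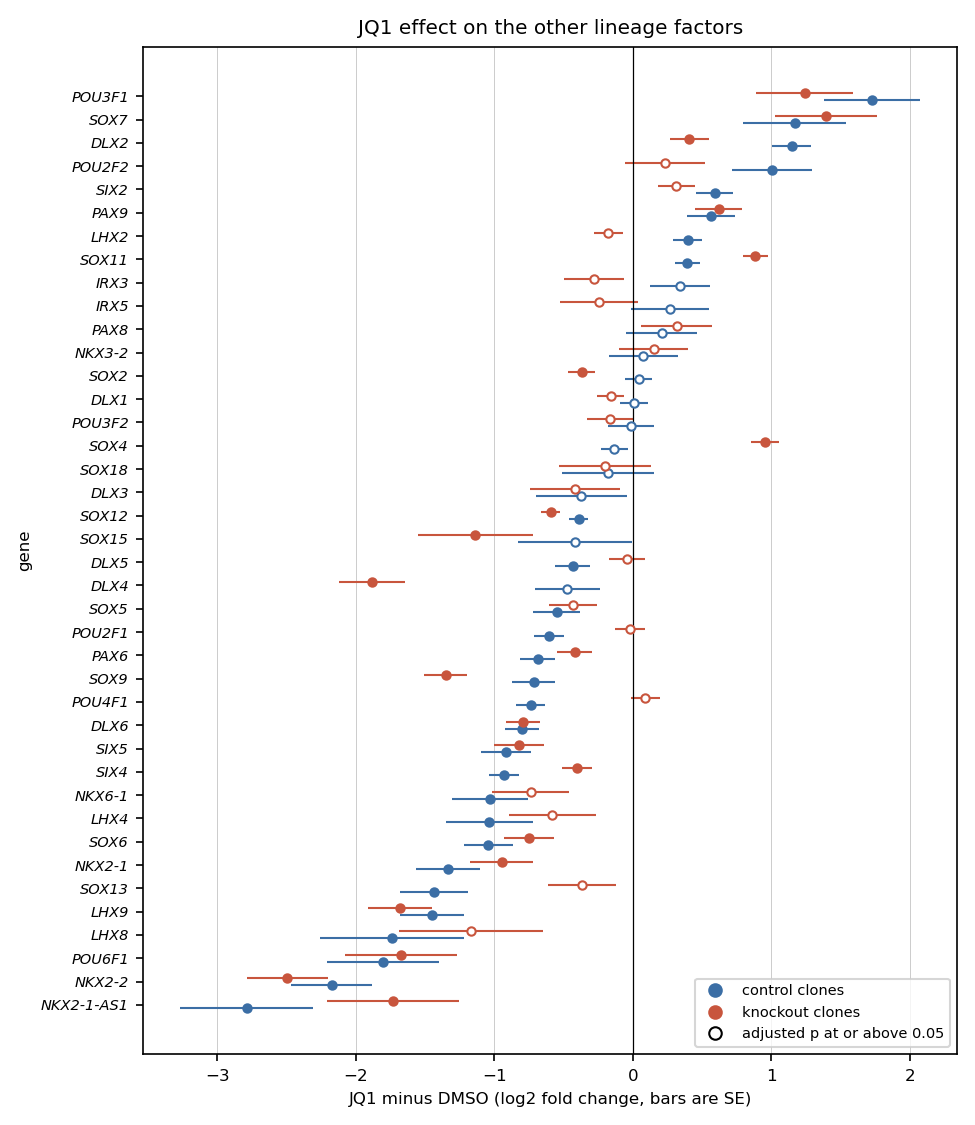
JQ1 minus DMSO log2 fold change of 40 of the 41 rows outside the HOX clusters, ordered by the effect in control clones (blue, control; red, knockout); bars are standard errors and open points have an adjusted p of at least 0.05. NKX2-1-AS1 (-2.79) and NKX2-2 (-2.17) are at the bottom and POU3F1 (1.73) at the top, and for SOX4 the knockout clones (0.96) lie above the control clones (-0.13).

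Several of these JQ1 calls passed the threshold only with all clones, and none changed direction. Leaving out control clone 3 ended the control-clone calls of DLX5, LHX2, LHX4, NKX6-1, PAX9, POU2F2, SOX5 and SOX7, leaving out clone 10 those of DLX5, LHX2, NKX6-1, PAX9, POU2F2, SOX11 and SOX5, and leaving out clone 13 those of LHX2, LHX4, PAX9, POU2F2, SIX2, SOX5 and SOX7 (adjusted p up to 0.190). In knockout clones, DLX2, PAX9, POU3F1, SOX15 and SOX7 were lost without clone 12 (up to 0.195), NKX2-1, NKX2-1-AS1, PAX9, POU3F1, POU6F1, SIX4, SOX15, SOX2 and SOX7 without clone 15 (up to 0.202), DLX2, NKX2-1, NKX2-1-AS1, PAX6, POU6F1, SIX4 and SOX6 without clone 2-1 (up to 0.191), and DLX2 and SOX15 without any 1 control clone (0.0632 to 0.0782).

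The response to JQ1 itself differed by genotype for 2 of the 67 rows, SOX4 and POU4F1, against 3.10% of all genes (1.55% higher and 1.55% lower); both were higher. SOX4 did not pass in control clones, going from 3000.3, 3602 and 6893 to 2679, 3290.4 and 6407 normalized counts (log2 -0.13, SE 0.10, adjusted p = 0.297). In knockout clones it rose from 1662, 1437 and 1481 to 2972, 3519 and 2498 (0.96, SE 0.10, adjusted p = 0.000174). The difference in response was 1.09 (SE 0.14, adjusted p = 0.0155), and 1.04 (adjusted p = 0.0127) without the library that stood apart. With JQ1 the knockout clones thus overlapped the control clones in SOX4. POU4F1 fell in control clones by 0.74 (SE 0.10, adjusted p = 0.000722) and did not pass in knockout clones (0.09, SE 0.10, adjusted p = 0.49; 0.22, adjusted p = 0.0273 without the library). Its difference was 0.83 (SE 0.15, adjusted p = 0.0348), and 0.96 (adjusted p = 0.0078) without the library. HOXA11 fell less in knockout clones, with a difference of 1.27 (SE 0.28, adjusted p = 0.0533) that did not pass in the main fit. Without the library HOXA11 passed (1.37, adjusted p = 0.0258), as 1 of 3 rows, against 7.36% of all genes (3.75% higher and 3.61% lower). Other fits were divided: HOXA11 passed with DESeq2 (adjusted p = 0.0394) and with limma without knockout clone 12 (0.0319), but not with edgeR (0.14) or with limma without clone 15 (0.156).

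Neither difference is firm across fits. With edgeR's quasi-likelihood test on whole reads summed per clone 0 of 67 rows passed (adjusted p = 0.0584 for SOX4 and 0.114 for POU4F1), and with DESeq2 7 rows passed. The shares of all genes called in these fits are not given here. Without control clone 3, 10 or 13, neither gene passed (adjusted p 0.081 to 0.169), and POU4F1 also failed without knockout clone 15 (0.0999) and without replicate 2 or 3 of knockout clone 12 with JQ1 (0.0938 and 0.0999), and without all libraries numbered 2 (0.0899) or 3 (0.133).

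The 17 rows under the filter hold few reads and were not tested in the main analysis. HOXC12 had 105 reads with DMSO in knockout clones (13.5, 21.6 and 0.685 normalized counts in clones 12, 15 and 2-1) and 0 in control clones with either treatment and in knockout clones with JQ1. HOXC11 (68 of its 86 reads), HOXD10 (93 of 108) and HOXD11 (107 of 140) were likewise mostly in knockout clones with DMSO. SOX8, a neural crest and glial factor, had 110 of its 120 reads in knockout clones with JQ1 (8.44, 18.7 and 6.48 normalized counts), and SOX30, a germ cell factor, 154 of 223. Under DMSO, HOXA2 had 114 reads in control and 17 in knockout clones, of 253 in all. HOXB6, HOXB8 and HOXB13 owe most of their reads in knockout clones with JQ1 to the library that stood apart. The second HOXC4 identifier, HOXD1, IRX4, NKX2-5, NKX2-8, POU3F3 and SIX3 complete the 17. With no filter, the rows among these that passed between genotypes with DMSO were HOXC11 (log2 fold change 2.71, adjusted p = 0.00823), HOXD10 (2.78, adjusted p = 0.0217), HOXD11 (2.80, adjusted p = 0.0356), SOX30 (2.21, adjusted p = 0.0375) and HOXA2 (-2.45, adjusted p = 0.0429).

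The counts of partner genes are to be read against all genes, of which 12.5% passed between genotypes with DMSO. The shares called for JQ1 were 47.9% (control) and 49.6% (knockout). Among 8 TALE homeobox cofactors of HOX proteins tested, 1 was higher in knockout clones with DMSO and none was lower. With JQ1, 4 of the 8 fell and 1 rose in control clones, and 5 fell and 1 rose in knockout clones (3 and 1 when replicate 1 of clone 12 was left out). PBX2 fell the most, from 782 to 181 in control clones (-2.10, SE 0.10, adjusted p = 2.45e-05) and by 1.71 (SE 0.10) in knockout clones, and MEIS3 fell by 0.77 and 0.91 (SE 0.10 for each). Of 6 TLE corepressors, which homeodomain proteins recruit, TLE4 (4.11 to 333 normalized counts; 6.01, SE 0.45, adjusted p = 0.00054) and TLE1 (1.24, SE 0.21) were higher and TLE6 (-1.90, SE 0.36) lower without NEUROD1. All 6 changed with JQ1 in both genotypes, TLE2, TLE3, TLE6 and AES down and TLE1 and TLE4 up. Of 4 partners of SIX-family factors tested, DACH1 was lower without NEUROD1 (-0.82, SE 0.20, adjusted p = 0.0428). None of 6 LIM partners passed between genotypes with DMSO. With JQ1, 2 of the 6 rose and 1 fell in control clones, and 1 rose and 2 fell in knockout clones (2 and 3 without the library). LMO2 fell by 0.84 (SE 0.11) in control and by 1.52 (SE 0.11) in knockout clones.

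Among 22 other homeobox genes tested, 3 were higher and 2 lower in knockout clones with DMSO, against 6.32% and 6.23% of all genes. MSX2, a craniofacial and bone factor, stood at 0.707 in control and 435 in knockout clones (log2 fold change 7.62, SE 1.03, adjusted p = 0.00575). ALX4 (3.83, SE 0.47) and MSX1 (1.78, SE 0.38) were the other higher genes, and the neural factors ONECUT2 (-2.03, SE 0.26) and PROX1 (-1.99, SE 0.38) were the lower ones. With JQ1, 9 of the 22 fell and 1 (VAX2) rose in control clones, and 10 fell and 2 rose in knockout clones (9 and 4 without the library). Of all genes, 24.9% fell and 23.0% rose in control clones, and 25.7% and 23.9% in knockout clones (30.2% and 26.2% without the library). HMX2 (-2.63, SE 0.27) and HLX (-1.98, SE 0.23) fell the most in control clones. Of the 26 rows tested for Polycomb and trithorax regulators, which maintain HOX states, 1 passed between genotypes with DMSO (PHF19, 0.68, SE 0.16). With JQ1, 7 rose and 8 fell in control clones, and 9 rose and 5 fell in knockout clones (12 and 4 without the library). These counts are to be read against the same shares of all genes, 47.9% in control and 49.6% in knockout clones in either direction. PHF19 fell in both genotypes (-1.81, SE 0.09, and -1.37, SE 0.09), and EZH2, the H3K27 methyltransferase, rose in both (0.53, SE 0.07, and 0.50, SE 0.07).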

How the data were processed

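Poly(A) RNA libraries of 6 clones (36 libraries in 12 groups) were analysed from 2 tables. Per the submitters' processing notes, the tools were cutadapt, STAR and RSEM and the build was hg19; no version, strand setting or rule for the genes kept is named in the sources used here. One table holds the authors' deposited normalized counts (unit signal), which are gene counts that the authors scaled with DESeq2 size factors. The other holds RSEM values in FPKM, scaled by gene length and library size by the authors. Whole reads were recovered from the normalized values (100% within 1e-06 of a whole number) and used for edgeR and DESeq2 as alternatives; no edgeR or DESeq2 result is a main one.

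Members and gene lists were chosen with earlier results of these data known. Named members are those past the threshold in at least 1 comparison, the 10 highest in FPKM in each genotype with DMSO, and those under the filter; which of them have clone values printed was in part chosen after the values were seen. A few genes are counted but not reported here by name or drawn by name. Clone means of log2(normalized count + 1) were tested with limma 3.58.1 (R 4.3.3, trend) over 15819 genes, with two-sided p adjusted by the Benjamini-Hochberg method over all of them and a threshold of 0.05; log2 changes understate those of low genes. Genotype was tested on 3 against 3 clones, JQ1 on the difference within each clone with 1 spread over 6 clones. The labels call the libraries of a clone biological replicates; clones of a genotype share their guide, so p-values measure the spread between these clones. The test was tried on simulated data. Replicate libraries of each clone and treatment differed beyond counting noise (lowest chi-square over its degrees of freedom 2.19), so none was counted as a repeat.

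Alternatives were other pseudocounts (0.25 and 5) and filters, equal totals, TMM, FPKM (offset 0.1), edgeR 4.0.16, DESeq2 1.42.0, single libraries with a replicate block, and fits without 1 clone, 1 replicate number or 1 library. Replicate numbers were not taken to pair libraries. DMSO and JQ1 libraries of a clone with the same number correlated in their deviations by -0.21 to 0.112 (18 pairs, 1 over 0.1). Control and knockout libraries of the same treatment and number correlated by -0.146 to 0.406 (54 pairs). Pairs with unlike numbers were not compared, so these ranges do not settle whether the numbers pair libraries. Promoters are RefSeq windows (GRCh38.p14); overlaps come from GENCODE 29 (83 of 84 rows matched). Plots used matplotlib 3.10.9 in Python 3.11.15.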

Additional observations from a re-analysis of the deposited data

Results flagged for a closer look

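The JQ1 response differed between genotypes, by the test of the difference itself, for SOX4 (1.09 on the log2 scale, higher in knockout clones; the change was positive in 3 of 3 knockout clones and negative in 3 of 3 control clones) and for POU4F1 (0.83). Both calls were lost with any 1 control clone left out.

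The FPKM table also lists 41 gene identifiers of these families that the table of normalized counts does not hold. The SOX7 symbol is among these, on an identifier other than that of the row tested here. In replicate 1 of knockout clone 12 with JQ1, 6 of the 41 reached at least 1 FPKM and stood above every control library. Among them were HOXB9 (5.58 FPKM), SOX21 (1.61), POU5F2 (1.48) and NKX1-2 (1.22). In the other 35 libraries only NKX2-2-AS1, an antisense RNA, reached 1 FPKM, with at most 2.5, and HOXB9 reached at most 0.08. The part of the lung and blood transcripts of that library in these values was not tested.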

How the results depend on the processing

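No call of a member changed direction under any of the alternatives run. Of the calls, 7 of 15 (genotype with DMSO), 8 of 17 (genotype with JQ1), 28 of 45 (JQ1 in control clones), 26 of 40 (JQ1 in knockout clones) and 0 of 2 (difference in response) passed under every alternative in which the row was tested. Among the alternatives that kept all libraries, the number of members past the threshold moved by over 1.5 times in few fits. For genotype with DMSO it was 25 with DESeq2 (main 15). For the difference in response (main 2) it was 1 with FPKM, 0 with edgeR, 7 with DESeq2 and 16 with single libraries and a replicate block. For this comparison the last fit treats libraries of 1 clone as independent. The other causes were not tested. With clones, replicate numbers or libraries left out, the count ranged from 7 to 16 for genotype with DMSO, 9 to 18 for genotype with JQ1, 36 to 47 for JQ1 in control clones, 31 to 43 in knockout clones and 0 to 3 for the difference. The lowest counts for genotype with DMSO (7, main 15), genotype with JQ1 (9, main 17) and the difference (0, main 2) also moved by over 1.5 times. Each of these came with 1 clone left out. Under the replicate block 20, 20, 52 and 48 members passed in the first 4 comparisons, in that order. The genotype fits there allowed for a correlation between libraries of 1 clone. The JQ1 fits held a term for each clone and otherwise took libraries as independent. The shares of all genes called in each fit are not given here, so these counts show nothing particular to the members. Not every pair with the same number correlates, so the numbers were not taken to pair libraries, and a call gained or lost there says nothing of the size of an effect. Each fit with a clone left out kept 2 clones of that genotype.

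Depth limits the 17 rows under the filter, and 3 clones per genotype limit all tests.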
